A study of Mus musculus with 2 samples.

Results

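The Kcn genes encode the pore-forming and auxiliary subunits of potassium channels. They were chosen by name, as every protein-coding gene of the GENCODE M21 annotation whose symbol begins with Kcn, which gave 94 genes of 21938 protein-coding genes. The chromatin was from hippocampus of female B6CASTF1/J mice, first-generation hybrids of the C57BL/6J laboratory strain and the wild-derived CAST/EiJ strain, at 25 days of age. The labels give the tissue as a layer of the hippocampus without naming which. DNase-seq, which reads where the enzyme DNase I can cut chromatin, was run on 2 libraries, given as biological replicates 1 and 2 of a single group, and both carry the same donor entry. Whether they came from different animals is not stated, so part of their spread may be technical. There was no second condition, so no test between groups was possible and all values below are descriptions of these 2 libraries, the main ones set beside the same measure over all protein-coding genes.

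Potassium channels let potassium ions leave or enter a cell along their electrochemical gradient and so set the resting potential, end the action potential and control how often a neuron can fire. Voltage-gated channels open on depolarisation, calcium- and sodium-activated channels couple firing to ion entry, inward rectifiers hold the membrane near rest and mediate slow inhibition by G-protein-coupled receptors, and 2-pore-domain channels carry background leak. In the hippocampus these channels shape the back-propagation of spikes into dendrites, the afterhyperpolarisation and theta-frequency firing.

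A promoter was called open when each library had a strict-list peak no further than 500 bp from any of the starts annotated for the gene. Every strict peak held a base with a false discovery rate (FDR) of the DNase cut rate of 0.001 or less, and every peak of a longer list, deposited beside it, held one at 0.05 or less. Peak strength is the authors' own signal value for each peak, whose scaling is not stated, and where a window held several peaks the highest was taken in each library. Signals of replicate 1 were higher than those of replicate 2 at all 47 open Kcn promoters, with a median log2 ratio of replicate 1 over replicate 2 of 1.06, against 1.24 over all 11890 open promoters. Values were therefore also given as percentiles among the promoters of all protein-coding genes with a peak in that library. Sequencing depth is unknown from the files used here. Replicate 1 had 61466 strict peaks and 236942 footprints and replicate 2 had 50379 strict peaks and 159538 footprints, a footprint being a short stretch protected from cutting inside open chromatin.

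Of the marker genes of the labelled tissue, all 4 pan-neuronal genes and 4 of 6 genes of hippocampal and cortical excitatory neurons had open promoters, and each of the other two, Slc17a7 and Prox1, had a strict peak in 1 library. None of 5 inhibitory-neuron markers was open, nor any of 3 oligodendrocyte, 3 microglial or 3 endothelial markers, and 1 of 4 astrocyte markers, Gfap, was open. The inhibitory-neuron marker Pvalb, the oligodendrocyte marker Mbp and the astrocyte markers Aldh1l1 and Slc1a3 had a strict peak in replicate 1 only. By mean percentile Gfap, at 62.3, stood above every open neuronal marker, of which Camk2a was highest at 48.2. Over all protein-coding genes, 54.2% of promoters were open. Tissue was measured in bulk, so a site open weakly in many cells and one open strongly in few cells cannot be told apart.

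Kcn promoters were open about as often as promoters in general but weakly. Promoters of 47 of the 94 Kcn genes (50%) were open in both libraries, against 54.2% of all protein-coding genes. A further 15 had a strict peak in replicate 1 only and 1, Kcnk16, in replicate 2 only, and 31 had none in either library. In Kcnk16, Kcnk10 and Kcnj4 a strict peak of the other library lay 19, 32 and 39 bp beyond the windows, so these calls turn on the window edge. With the longer lists, 64 Kcn genes (68.1%) had a promoter peak in both libraries, against 59.7% of all protein-coding genes. With only the stronger 50% of each strict list, 31 Kcn genes (33.0%) were open, against 47.1% of all genes. The order of Kcn genes and all genes thus turned with the peak list, and it turned too with replicate 1 alone, where 62 Kcn genes (66.0%) had a strict promoter peak, against 60.2% of all genes. A footprint of each library lay within 500 bp of a start in 61 Kcn genes, against 56.9% of all protein-coding genes.

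The median signal of the 47 open Kcn promoters in replicate 1 was 1.96, against 4.30 over all open promoters, and in replicate 2 it was 0.975, against 1.80. In percentiles the median Kcn promoter stood at 22.9 in replicate 1, where the median of all open promoters was 54.9, and at 19.1 in replicate 2, where that of all was 50.8. The promoters of 41 of the 47 (87.2%) lay below the median open promoter in both libraries, against 42.1% of all open promoters. Only 4 (8.51%), among them those of Kcnab2, Kcnn2 and Kcnh1, lay above both medians, against 42% of all open promoters. The members' order was much the same in both libraries, with a Spearman correlation of 0.874 across the 47 promoters, against 0.858 across all open promoters, which are points that share the same 2 libraries.

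**Figure D1:**
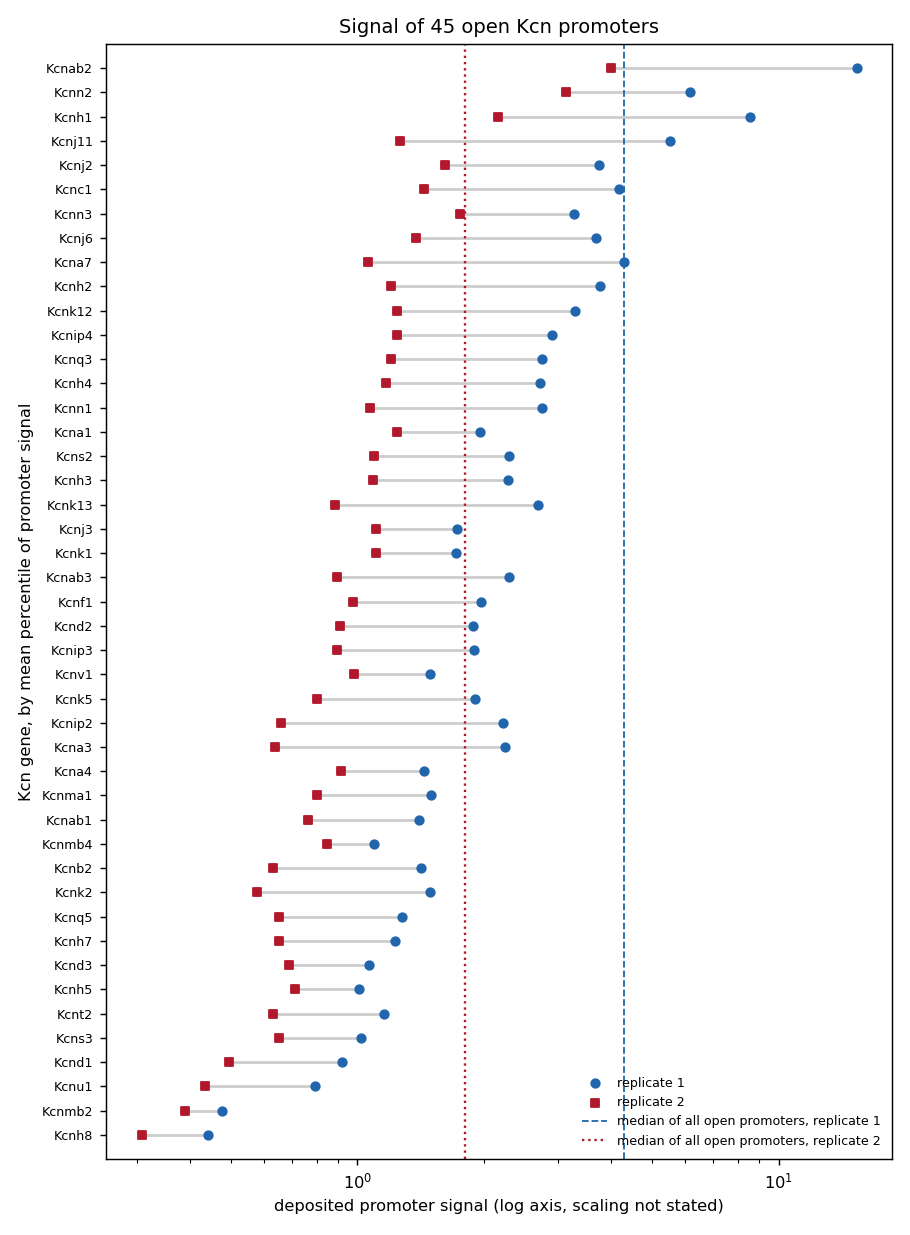
Deposited DNase-seq signal of 45 open Kcn promoters on a log axis, in replicate 1 (circles) and replicate 2 (squares), ordered by mean percentile; the vertical lines are the medians over all open promoters, 4.30 in replicate 1 (dashed) and 1.80 in replicate 2 (dotted). Kcnab2 stands at the top with 15.3 and 3.99, and 41 of the 45 genes lie left of the line of their library in both.

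The sequences at 3 of the strongest promoters are given because the results on promoter strength turn on them, with that of Kcnh8, the weakest open one in windows of 500 bp, for contrast. Each is the 200 bases at the centre of the shared peak region of the promoter, read from the C57BL/6J reference genome on the gene's own strand, so alleles of the CAST/EiJ parent are not shown. Capitals mark bases that lie in footprints of both libraries. Besides Kcnab2, the open regions of Kcnd3, Kcnh8, Kcnk2, Kcnma1, Kcnmb4 and Kcnq3 also lay within 500 bp of an annotated start of another gene.
Kcnab2 promoter region, chr4:152477541-152477740, mm10, minus strand: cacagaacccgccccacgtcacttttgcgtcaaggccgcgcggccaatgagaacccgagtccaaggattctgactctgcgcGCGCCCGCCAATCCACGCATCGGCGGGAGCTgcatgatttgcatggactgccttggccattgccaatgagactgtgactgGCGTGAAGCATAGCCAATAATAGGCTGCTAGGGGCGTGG
Kcnh1 promoter region, chr1:192190631-192190830, mm10, plus strand: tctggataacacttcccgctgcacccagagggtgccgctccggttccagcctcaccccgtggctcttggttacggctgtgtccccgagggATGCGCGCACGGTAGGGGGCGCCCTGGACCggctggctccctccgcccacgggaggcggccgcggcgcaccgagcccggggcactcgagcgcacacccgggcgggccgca
Kcnj11 promoter region, chr7:46100721-46100920, mm10, minus strand: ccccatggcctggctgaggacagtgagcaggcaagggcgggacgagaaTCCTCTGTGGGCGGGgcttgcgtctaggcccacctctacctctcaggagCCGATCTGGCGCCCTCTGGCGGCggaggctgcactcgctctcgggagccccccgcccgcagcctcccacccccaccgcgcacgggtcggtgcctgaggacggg
Kcnh8 promoter region, chr17:52602580-52602779, mm10, plus strand: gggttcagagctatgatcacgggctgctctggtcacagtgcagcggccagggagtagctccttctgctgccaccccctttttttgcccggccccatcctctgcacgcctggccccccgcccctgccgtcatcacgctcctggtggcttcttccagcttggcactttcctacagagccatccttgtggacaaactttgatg
In the Kcnab2 window 70 bases lay in footprints of both libraries, in the Kcnj11 window 38, in the Kcnh1 window 30 and in the Kcnh8 window 0. All 4 windows hold GGGCGG, the letters bound by SP-family factors, on one strand or the other, and that of Kcnab2 also holds CCAAT, the letters bound by NF-Y. Only in the Kcnj11 window did a match of GGGCGG lie in footprints of both libraries. In the window from 250 bases before to 50 after the outermost start, GGGCGG on either strand was found in 26 of 47 open Kcn promoters (55.3%) and 13 of the 31 with no strict peak (41.9%), against 43.0% of all promoters and 61.0% of all open promoters. CCAAT was found in 13 of the 47 open Kcn promoters (27.7%), against 39.8% of all open promoters. An E-box of the form CAGCTG or CAGATG was found in 14 of the 47 open Kcn promoters (29.8%), against 24.4% of all open promoters. It was in 16 of the 31 without a strict peak (51.6%) and in 28.2% of all promoters. The share among all promoters without a strict peak was not computed. CCGGAAG, an ETS-family form, was in 5 of the 47 (10.6%), against 17.4% of all open promoters, and TGACGTCA, the cyclic-AMP response element, was in 0 of all 94 Kcn promoters, against 2.43% of all promoters. The NRF1 motif was in 0 of the 47 open Kcn promoters, against 10.5% of all open promoters. It was in 0 of all 94 Kcn promoters, against 5.99% of all promoters. A match of letters is not evidence of binding, and a missing match says only that the letters are not in this window. For some open members the searched window was not the open one. The open regions of Kcnu1, Kcnk2, Kcnma1 and Kcnn1 lay at starts 62.1, 58.4, 10.3 and 6.2 kb from the outermost one.

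Among the 30 voltage-gated pore subunits, 20 had open promoters, 4 had a strict peak in replicate 1 only and 6 had none. The Kcnd and Kcnh subfamilies held 10 of the open ones. Kcnb2, a delayed rectifier of neurons, had a promoter signal of 1.42 in replicate 1 and 0.630 in replicate 2. All 3 Kcnd genes, which encode the A-type channels that damp dendritic spikes, were open but low, with 1.88 and 0.908 for Kcnd2, 1.07 and 0.690 for Kcnd3 and 0.919 and 0.495 for the X-linked Kcnd1. All 3 lay under the 20th percentile of promoters with a peak, on the mean of both libraries, and Kcnd1 was among the 5 lowest open members.

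Of the 8 Kcnh genes, the ether-a-go-go family, 7 were open, and the eighth, Kcnh6, had a strict peak in replicate 1 only (1.96). Kcnh1, the founding ether-a-go-go channel in mammals, had 8.54 in replicate 1 and 2.16 in replicate 2, a mean percentile of 78.0. Kcnh8, a slowly activating member of the same family, had the lowest values of any open Kcn promoter, 0.441 and 0.308, a mean percentile of 0.340. This low place held for windows of 500 bp and not for windows of 2000 bp, in which the mean percentile of Kcnh8 was 13.8, above Kcnmb2 (1.02), Kcnu1 (3.07), Kcnd1 (4.58) and Kcns3 (7.70). Between Kcnh1 and Kcnh8, in windows of 500 bp, lay Kcnh2, the ERG channel known for cardiac repolarisation, with 3.77 and 1.20, Kcnh4 with 2.72 and 1.17, Kcnh3 with 2.27 and 1.09, Kcnh7 with 1.23 and 0.653 and Kcnh5 with 1.01 and 0.713.

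Of the Kcnc genes, which encode channels of fast-spiking neurons, Kcnc1 (4.18 and 1.44) was open and Kcnc2 and Kcnc4 had no strict promoter peak. Kcnc2 had peaks of the longer list in both libraries (0.463 and 0.360), and Kcnc4 had one in replicate 1 only (0.927). Kcnc1, Kcna1 and Kcnn2 each had 2 separate open start windows, whereas most open members had 1. The open region of Kcnc1 of highest signal lay at a start 26.2 kb from the outermost one.

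The 8 Kcna genes, which include the low-threshold delayed rectifiers of axons, split evenly. Kcna7 (4.29 and 1.06), Kcna3 (2.24 and 0.638), Kcna1 (1.96 and 1.25) and Kcna4 (1.44 and 0.915) were open. Kcna2 (2.01), Kcna6 (1.38) and Kcna10 (1.03) had a strict peak in replicate 1 only, and Kcna5 had none. Kcna2 nevertheless had 14 footprints in its promoter windows in replicate 1 and 5 in replicate 2, one of the highest totals of all Kcn genes. Other high totals were those of Kcnn2 (13 and 11), Kcna1 (15 and 7), Kcnc1 (14 and 4) and Kcns2 (9 and 9), all open, and each of these genes but Kcns2 had 2 or more start windows over which footprints were counted. In replicate 2 the lowest FDR in the Kcna2 windows was 0.00116. A base below 0.001 did not by itself give a strict peak. The Kcna6 windows held a base at 0.000658 in replicate 2 and had no strict peak there.

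Of the Kcnq genes, the M-current family that limits repetitive firing, Kcnq3 (2.74 and 1.20) and Kcnq5 (1.28 and 0.653) were open. Kcnq1, the channel of heart and epithelia, had no peak in either longer list.

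Among the 10 silent subunits, which form no channel alone but modify Kcnb channels, 4 were open, 2 had a strict peak in replicate 1 only and 4 had none. Kcns2 had 2.29 in replicate 1 and 1.10 in replicate 2, Kcnf1 1.96 and 0.975, Kcnv1 1.49 and 0.983, and Kcns3, among the 5 lowest open members, 1.02 and 0.653. None of the 4 Kcng genes was open: Kcng2 (2.04) and Kcng1 (1.75) had a strict peak in replicate 1 only, Kcng3 had longer-list peaks in both libraries and Kcng4 had no peak in any list. Kcns1 had no peak in any list, nor had Kcnv2, a subunit of retinal photoreceptors.

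The 17 auxiliary genes divided by family. All 3 Kcnab genes, the cytoplasmic beta subunits of Kcna channels, were open, as were 3 of the 4 Kcnip genes, the calcium-binding partners of Kcnd channels, whereas none of the 5 Kcne genes, single-pass subunits best known from heart, ear and epithelia, had a strict promoter peak in either library. Kcnab2 had the highest promoter signal of all Kcn genes, 15.3 in replicate 1 and 3.99 in replicate 2, a mean percentile of 98.9. The Kcnab2 region also lay within 500 bp of a start of Nphp4, a ciliary gene on the opposite strand, so its signal cannot be assigned to Kcnab2 alone. Kcnab3 had 2.29 and 0.893 and Kcnab1 1.40 and 0.765.

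Kcnip4 (2.89 and 1.25), Kcnip2 (2.22 and 0.660) and Kcnip3 (1.89 and 0.893) were open, and Kcnip1 had longer-list peaks only (0.699 and 0.330). Of the Kcne genes, Kcne3 had longer-list peaks in both libraries (0.426 and 0.375) and Kcne1, Kcne1l, Kcne2 and Kcne4 had none. Of the 4 beta subunits of the BK channel, Kcnmb4, the neuronal one, was open with 1.10 and 0.848, Kcnmb2 was open with 0.478 and 0.390, and Kcnmb1, the smooth-muscle one, and Kcnmb3 had no peak in any list. Kcnrg, a soluble regulator of channel assembly, had none.

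**Figure D2:**
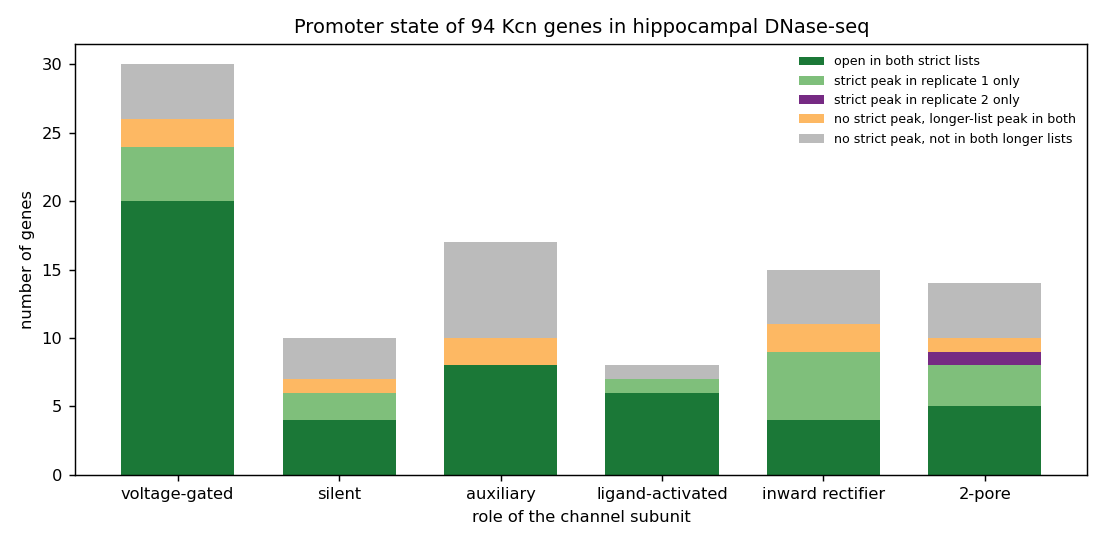
Number of Kcn genes by promoter state in each class of subunit by role, stacked from open in both libraries at the bottom. Open promoters number 20 of 30 in voltage-gated pore subunits, 4 of 10 in silent subunits, 8 of 17 in auxiliary genes, 6 of 8 in calcium- and sodium-activated (ligand-activated) channels, 4 of 15 in inward rectifiers and 5 of 14 in 2-pore-domain channels.

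Among the 8 genes of calcium- and sodium-activated channels, 6 were open. Kcnn1, Kcnn2 and Kcnn3, which encode the SK channels of the neuronal afterhyperpolarisation, were all open, and Kcnn4, which encodes the intermediate-conductance channel of blood and epithelial cells, had no promoter peak in any list. Kcnn2 had 6.16 in replicate 1 and 3.12 in replicate 2, a mean percentile of 83.4 and the second highest of the Kcn genes. The open region of Kcnn2 lay at an internal start 290.6 kb from the outermost one, and the values rest on that start: its mean percentile was 20 when only the outermost start was used, and it was not open when only the starts of GENCODE basic transcripts were used. Kcnn3 had 3.27 and 1.76 and Kcnn1 2.75 and 1.07. Kcnma1, the BK channel, had 1.49 and 0.803, Kcnt2, a sodium-activated channel, had 1.15 and 0.630, and Kcnt1, the other one, had a strict peak in replicate 1 only (1.10). Kcnu1, the sperm channel, was open at 0.794 and 0.435, among the 5 lowest, at a start 62.1 kb from the outermost one.

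Among the 15 inward rectifiers, 4 had open promoters, 5 had a strict peak in replicate 1 only and 6 had none. Kcnj11, the pore of ATP-sensitive channels, had 5.53 in replicate 1 and 1.26 in replicate 2, Kcnj2, a classical strong rectifier, 3.75 and 1.61, Kcnj6 3.68 and 1.38, and Kcnj3 1.72 and 1.11. Kcnj11 was not open when only the starts of basic transcripts were used. Kcnj3, Kcnj6 and Kcnj9 encode the G-protein-gated channels of hippocampal neurons, and the third of them, Kcnj9, had a strict peak in replicate 1 only (1.79). Kcnj10 and Kcnj16, the channels of astrocytes, had strict peaks in replicate 1 only, of 1.81 and 0.50. Kcnj10 was among the members of highest signal seen in a single library, and in replicate 2 its windows held a base of FDR 2.47e-13 and a longer-list peak of 0.990 although the nearest strict peak lay 8210 bp beyond them. Kcnj4 (1.71) and Kcnj8 (0.706), the vascular pore, also had a strict peak in replicate 1 only, but a strict peak of replicate 2 lay 39 bp beyond the Kcnj4 window. Of those with none, Kcnj5 and Kcnj12 had longer-list peaks in both libraries, and Kcnj1, the renal channel, Kcnj13, Kcnj14 and Kcnj15 had no peak in any list.

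Among the 14 genes of 2-pore-domain channels, 5 were open. Kcnk12 had 3.29 and 1.25, Kcnk13 2.68 and 0.885, Kcnk5 1.90 and 0.803, Kcnk1 1.71 and 1.11 and Kcnk2, the mechanosensitive TREK channel, 1.49 and 0.578. The open region of Kcnk2 lay 58.4 kb from its outermost start. Kcnk10 (1.65), Kcnk3 (1.09) and Kcnk15 (0.963) had a strict peak in replicate 1 only, and Kcnk16 (0.690) in replicate 2 only. A strict peak of the other library lay 32 bp beyond the windows of Kcnk10 and 19 bp beyond those of Kcnk16. Kcnk4, known as TRAAK, had longer-list peaks in both libraries (0.846 and 0.518), Kcnk6 and Kcnk9 in replicate 1 only (0.831 and 0.618), and Kcnk7 and Kcnk18 had none.

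Of the 34 Kcn genes listed for neuronal function, 26 were open and 32 had longer-list promoter peaks in both libraries, the exceptions being Kcnc4 and Kcnk9. Of the 17 listed for other organs, 2 were open, Kcnk5 and Kcnu1, both under the 20th percentile on the mean of both libraries. Of the 2 listed for glia, Kcnj10 and Kcnj16, neither was open. These lists rest on textbook roles and were written with earlier results of these data known, so their counts are descriptions. The 26 open neuronal genes (76.5%) stand beside 54.2% of all protein-coding genes, and beside 77.6% of those with a CpG observed to expected ratio from 0.5 to 0.75, the class that holds the median of the list, 0.62. The 32 with longer-list peaks (94.1%) stand beside 59.7% of all protein-coding genes. The 2 open genes listed for other organs (11.8%) stand beside the same 54.2% of all protein-coding genes. They also stand beside 35.8% of those with a CpG ratio from 0.25 to 0.5, the class that holds the median of that list, 0.27. The 2 lists thus differ in CpG ratio as well as in role. Of 26 genes of partner proteins, which are not Kcn genes themselves, 18 were open (69.2%), against 54.2% of all protein-coding genes. Another 6 had a strict peak in replicate 1 only and 2, Lrrc55 and Abcc9, had none. The median promoter signal of the open partners was 3.39 in replicate 1 and 1.62 in replicate 2. Both receptor subunits that signal to G-protein-gated channels were open, Gabbr1 with 7.41 and 2.30 and Gabbr2 with 1.77 and 0.780. The sulphonylurea receptor Abcc8, which completes the ATP-sensitive channel with Kcnj11 and lies beside it, had a strict peak in replicate 1 only (0.927).

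Of the 31 Kcn genes with no strict promoter peak, 17 (54.8%) had no base in their windows at an FDR of 0.05 or less in either library, against 85.5% of all protein-coding genes with no strict promoter peak. A further 8, among them Kcnc2, Kcne3, Kcng3, Kcnip1, Kcnj12, Kcnj5 and Kcnk4, had such bases and longer-list peaks in both libraries. That made 25.8% with longer-list peaks in both, against 3.08% of all such genes. In 6 (19.4%) such bases lay in replicate 1 only, against 8.22% of all. Of the 16 members with a strict peak in 1 library, 9 (56.2%) had longer-list peaks in both, against 66.3% of all genes with a strict peak in 1 library. In all, 19 Kcn genes (20.2%) had no longer-list promoter peak in either library, against 34.4% of all protein-coding genes.

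Open promoters were read against the CpG observed to expected ratio in 1000 bp around the outermost start, since CpG-rich promoters are open in most tissues. Below 0.25, 2 of 16 Kcn genes (12.5%) were open, Kcnma1 and Kcnip3, against 9.34% of all protein-coding genes in that class. The open region of Kcnma1 lay at a start 10.3 kb from the outermost one, so its ratio is not that of the open region. From 0.25 to 0.5, 15 of 32 Kcn genes (46.9%) were open, against 35.8% of all. From 0.5 to 0.75, 19 of 26 Kcn genes (73.1%) were open, against 77.6% of all. At 0.75 or more, 11 of 20 Kcn genes (55%) were open, against 90.5% of all. The distance from the background was thus greatest among the most CpG-rich promoters. The 9 members of that class that were not open included Kcnc4, Kcng3, Kcnj12, Kcnj4, Kcnk15, Kcnk3, Kcnk6 and Kcnk9. Of these, Kcnj4, Kcnk15 and Kcnk3 had a strict peak in replicate 1, and Kcng3 and Kcnj12 had longer-list peaks in both libraries. For Kcnj4 a strict peak of replicate 2 lay 39 bp beyond the window. The open members of that class were also weak, with a median percentile of 40.8 in replicate 1 and 27.4 in replicate 2, against 64.2 and 60.5 for all open promoters of the class. The CpG class rests on the outermost start, whereas any start could make a gene open, and 55 of the 94 genes had 2 or more separate start windows.

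**Figure D3:**
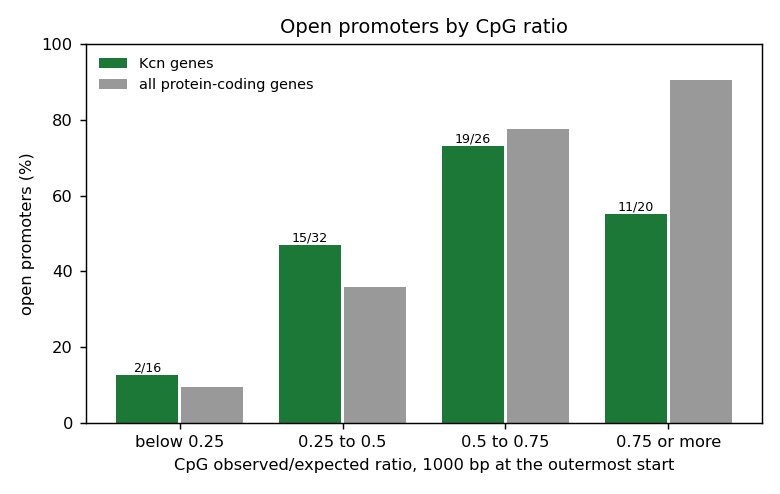
Share of genes with an open promoter by CpG observed to expected ratio, for Kcn genes (left bar of each pair, with the number open of the number in the class) and all protein-coding genes (right bar). The bars are 55% and 90.5% in the class of 0.75 or more, and 46.9% and 35.8% in that of 0.25 to 0.5.

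Away from promoters most Kcn genes had open chromatin around them, and its median signal was above that of all distal regions. That background holds all distal regions of the genome and was not limited to the surroundings of genes. A distal region is a connected set of overlapping strict peaks of both libraries. It lies outside the promoter windows of all protein-coding and long noncoding RNA genes. Such regions were counted in the gene body and 50 kb on each side. In all, 243 distinct distal regions lay around Kcn genes, out of 21815. The count was 424 with the peaks of replicate 1 alone and 439 with the longer lists. At least 1 lay around 84 of the 94 Kcn genes, against 72.3% of all protein-coding genes, and the median per gene was 2 for Kcn genes and 1 for all protein-coding genes. The 10 Kcn genes with none were Kcna2, Kcna4, Kcna7, Kcnc2, Kcne4, Kcnf1, Kcnj13, Kcnu1, Kcnv1 and Kcnv2. The median signal of the 243 regions in replicate 1 was 2.67, against 1.98 over all distal regions, and in replicate 2 it was 1.04, against 0.855. Of the 243, 131 (53.9%) lay above the median distal region in both libraries, against 38.5% of all distal regions. A footprint of each library lay in 235 of the 243 (96.7%), against 92.5% of all distal regions.

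**Figure D4:**
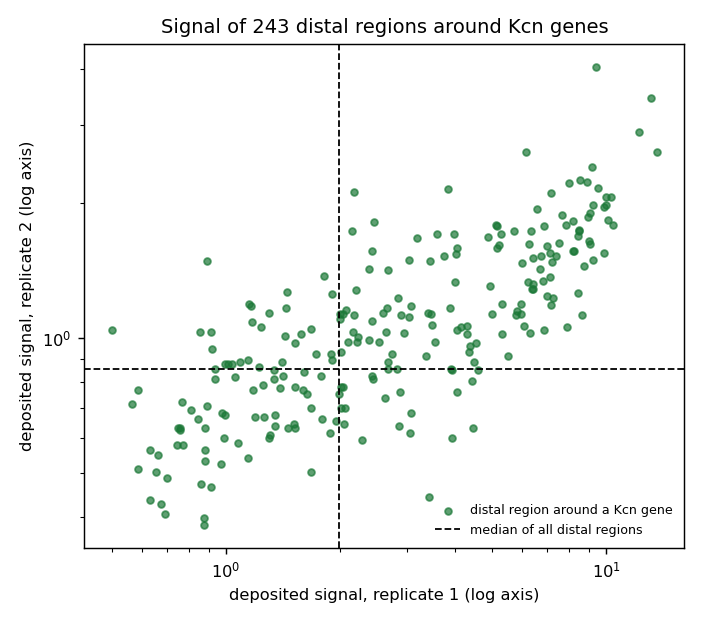
Deposited signal of the 243 distal regions around Kcn genes in replicate 1 and replicate 2, both on log axes; the dashed lines are the medians over all 21815 distal regions, 1.98 in replicate 1 and 0.855 in replicate 2. The upper right field between the lines holds 131 of the regions.

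Lying near a Kcn gene does not make a region its own. The nearest start of a protein-coding gene was that of a Kcn gene for 138 of the 243 regions (56.8%), and 96 (39.5%) lay in the body of a Kcn gene. Of the 257 pairs of gene and region, 82 were intronic, 14 exonic, 76 upstream and 85 downstream. Some regions, 14 in all, were counted for both members of a pair of neighbours: 4 for Kcnj9 and Kcnj10, 4 for Kcnip1 and Kcnmb1, 3 for Kcnj2 and Kcnj16, 2 for Kcne1 and Kcne2 and 1 for Kcnj1 and Kcnj5.

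Counted in the strict lists of both libraries with flanks of 50 kb, Kcnip1 had the most distal regions of any Kcn gene, 11, of which 8 lay in its body, although its promoter was not open. That place depended on the lists and libraries: Kcnj6 had 20 and Kcnip1 16 with replicate 1 alone, Kcnj6 had 19 and Kcnip1 18 with the longer lists, and Kcnip1 and Kcnma1 both had 13 with replicate 2 alone. The strongest of them by mean percentile had signals of 6.74 in replicate 1 and 1.53 in replicate 2 and lay in an intron, 74.2 kb from the nearest Kcnip1 start and closer to that of Kcnmb1. In the strict lists of both libraries Kcnq3 had 9, Kcnj6, Kcnma1 and Kcnn3 had 7 each, and Kcnab2, Kcnip3 and Kcnn4 had 6 each. Their order too changed when 1 library was left out. With replicate 1 alone, Kcnq3, Kcnma1, Kcnn3, Kcnab2 and Kcnip3 all had 10 and Kcnn4 had 8. With replicate 2 alone, Kcnma1 had 13, Kcnq3 12, Kcnj6 11, Kcnab2 10, Kcnn3 9, and Kcnip3 and Kcnn4 6 each. A count of 5, the next, was shared by genes that included Kcnb2, Kcnd3, Kcnh4, Kcnip4, Kcnj10, Kcnj4, Kcnn1 and Kcnq1. All 7 regions of Kcnma1 and 6 of the 7 of Kcnj6 lay inside the gene, whereas 1 of the 6 of Kcnn4 did.

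Counts were set against gene length, because a longer gene is counted over more sequence. For genes under 20 kb the median was 2 in 38 Kcn genes and 1 in all protein-coding genes, and from 20 to 100 kb it was 3 in 33 Kcn genes and 2 in all. From 100 to 300 kb it was 1.5 in 10 Kcn genes and 3 in all, and at 300 kb or more it was 4 in 13 Kcn genes and 4 in all. The higher counts of Kcn genes were therefore seen in the 2 shorter classes. Per 100 kb of body and flanks, the highest densities included 5.15 for Kcnn4, 4.18 for Kcnh4, 4.13 for Kcnn1, 4.11 for Kcnj4, 3.89 for Kcna5, 3.76 for Kcnj10, 3.68 for Kcnj9 and 3.62 for both Kcnip3 and Kcnmb1. Of these, Kcnn4, Kcna5 and Kcnmb1 had no strict promoter peak, and the neighbours Kcnj9 and Kcnj10 share 4 of their regions.

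**Figure D5:**
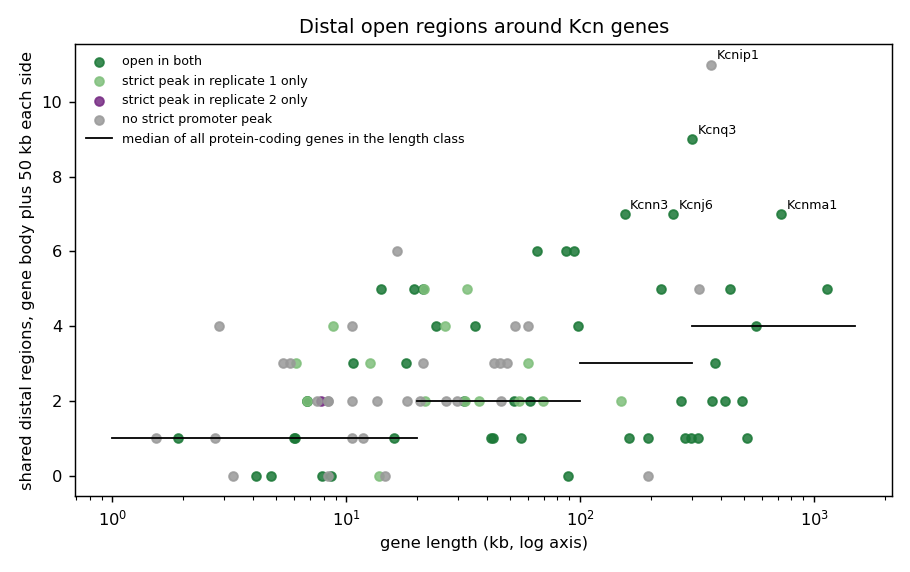
Shared distal regions around each Kcn gene (body plus 50 kb on each side) against gene length on a log axis, coloured by promoter state; black lines are the medians of all protein-coding genes in each length class. Kcnip1 stands at 11 with no strict promoter peak and Kcnj6 at 7, an order that turned to 16 and 20 with the peaks of replicate 1 alone.

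The strongest distal regions around Kcn genes are shown in sequence because they exceed nearly every Kcn promoter in signal. By mean percentile among all distal regions, and taking 1 region per gene, the first 5 included those of Kcnn1, Kcnip2, Kcnip3 and Kcnip4. The Kcnn1 region, chr8:70841141-70841320, had 12.2 in replicate 1 and 2.89 in replicate 2 and lay downstream, 1.51 kb from a start of Arrdc2. The Kcnip2 region, chr19:45813361-45813560, had 13.6 and 2.61 and lay in an intron of the gene, 1.17 kb from a Kcnip2 start. Both regions stood above the promoter of their own gene in both libraries, since the Kcnn1 promoter had 2.75 and 1.07 and the Kcnip2 promoter 2.22 and 0.660. The Kcnip3 region, chr2:127559421-127559640, had 9.17 and 2.41 and lay upstream with the start of Prom2 nearest. The Kcnip4 region, chr5:49090221-49090440, had 10.3 and 2.07 and lay in an intron, 195 kb from the nearest Kcnip4 start. Shown are 200 bases around the centre of 2 of them and of the strongest Kcnip1 region, from the C57BL/6J reference, with capitals for bases in footprints of both libraries.
Kcnip2 distal region, chr19:45813361-45813560, mm10, plus strand: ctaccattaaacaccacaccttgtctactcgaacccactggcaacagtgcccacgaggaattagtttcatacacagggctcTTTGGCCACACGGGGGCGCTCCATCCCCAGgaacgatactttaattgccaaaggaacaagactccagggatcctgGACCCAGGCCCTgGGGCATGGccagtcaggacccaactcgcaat
Kcnip4 distal region, chr5:49090231-49090430, mm10, plus strand: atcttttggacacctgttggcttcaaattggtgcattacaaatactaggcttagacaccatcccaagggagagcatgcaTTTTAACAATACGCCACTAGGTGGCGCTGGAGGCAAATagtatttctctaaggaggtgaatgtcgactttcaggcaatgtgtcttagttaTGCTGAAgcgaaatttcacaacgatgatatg
Kcnip1 distal region, chr11:33917671-33917870, mm10, plus strand: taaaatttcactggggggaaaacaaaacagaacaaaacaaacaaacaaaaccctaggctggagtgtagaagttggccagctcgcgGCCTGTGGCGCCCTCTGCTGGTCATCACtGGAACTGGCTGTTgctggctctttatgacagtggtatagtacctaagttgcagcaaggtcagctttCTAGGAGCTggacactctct
The number of bases in footprints of both libraries was 50 for Kcnip2, 45 for Kcnip4 and 50 for Kcnip1. The capitals of the Kcnip4 and Kcnip1 windows hold the letters CCNNNAGNNGGC, read on either strand, the core of the sequence bound by CTCF, a protein that anchors chromatin loops and boundaries. This core was searched for after these sequences had been seen.

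Over all distal regions around Kcn genes, the core CCNNNAGNNGGC on either strand was in the central 200 bases of 97 of 239 (40.6%), against 33.3% of 21092 distal regions of the genome, with 1 chromosome left out of both. It may share bases with GGGCGG. In 84 of the 239 (35.1%) 6 or more of its 12 positions lay in footprints of both libraries, against 27.9% over the genome. Among regions at the 90th percentile of signal or above, the core was in 23 of 40 around Kcn genes (57.5%) and in 55.2% over the genome. From the 50th to the 90th percentile it was in 56 of 113 (49.6%) and 44.7%, and below the 50th in 18 of 86 (20.9%) and 20.7%. Within classes of like signal the Kcn and genome shares thus lay within 5 percentage points of each other. In the strongest promoter regions the core was in 7 of 46 open Kcn genes (15.2%) and 13.0% of all open genes. The Kcnj11 region shown above is among the 7, with 6 or more positions of the core in footprints of both libraries. Of commoner letters, CAGCTG or CAGATG was in 34.7% of the distal windows around Kcn genes and 37.7% of all, CCAAT in 21.3% and 24.2%, and the AP-1 form TGANTCA in 7.53% and 6.91%. The letters GCGTGGGCG of EGR-family factors were in 2 of the 239 windows (0.837%) and 0.247% of all, CCGGAAG in 2 (0.837%) and 1.59%, the NRF1 motif in 3 (1.26%) and 0.702%, and TGACGTCA in 0 and 0.503%, counts too small to compare.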

How the data were processed

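DNase-seq of 2 libraries of 1 group was analysed from peak lists, footprints and cut-rate tables on mm10, per the labels. The aligner and the peak caller were not given in the sources used here, nor were read counts. Peak strength is in the deposited unit, a signal whose scaling the authors do not state, and libraries were not rescaled to each other. The cut-rate tables hold deposited p-values given as FDR, up to 0.05, and the footprints carry a constant FDR of 0.01. The strict list of each library is the one with fewer peaks. On the files, every strict peak held a base at an FDR of 0.001 or less and every longer-list peak one at 0.05 or less. Other deposited files were not used here.

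Genes came from GENCODE M21 on GRCm38, and all peaks lay within its chromosome lengths. Sequences and CpG ratios came from the RefSeq GRCm38 genome, the same build as mm10. Promoters were 500 bp either side of any start, and peaks of the 2 libraries that overlapped by 1 bp or more formed a shared region. Scripts ran in Python 3.11.15 with numpy 2.4.6, scipy 1.17.1 and matplotlib 3.10.9, and the interval code was tested on made-up intervals with known answers.

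No test was run, because there is 1 group. The members, gene lists, motifs and rules were chosen with earlier results of these data known, and the CTCF-type core after the sequences were seen. By rule the text names the 10 strongest and 5 weakest open promoters, the highest of those seen in 1 library, the 10 highest distal counts and densities, the 5 highest footprint counts and the 5 strongest distal regions. Further members are named to account for the set, and some genes that these rules would name are not reported here. Alternatives were single libraries, the longer lists, the stronger 50% of peaks, other windows, starts, flanks and overlaps.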

Additional observations from a re-analysis of the deposited data

How the results depend on the processing

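No paired analysis was possible because the libraries form 1 group. The count of 47 open Kcn promoters was 31 with the stronger 50% of each list and lay between 48 and 62 when 1 library was left out. The number of subfamilies with at least 50% of their members open, 13, was 7 with the stronger 50% and 13 to 16 with 1 library left out. Kcn genes with a promoter footprint in both libraries numbered 61, 36 when footprints had to share over 50% of the shorter, and 63 to 72 with 1 library left out. The 243 distal regions became 439 with the longer lists, 151 with the stronger 50%, 142 with flanks of 10 kb, 370 with flanks of 100 kb, and 348 to 424 with 1 library left out, 424 being that of replicate 1 alone. Their median per gene, 2, became 4, 1, 1 and 4 under those same 4 settings and 3 to 4 with 1 library left out. The median of the mean promoter percentile, 21.6, was 18.8 with the stronger 50%, 25.0 with windows of 2000 bp, and 17.9 to 21.2 with 1 library left out. The mean distal count of the 10 genes named for it, 7, was 12 with the longer lists, 4.1 with the stronger 50% and 9.3 to 10.8 with 1 library left out. Longer lists and single libraries hold more peaks by construction. The cause of the other shifts was not tested. Of values of single named genes, 96 of 110 promoter signals and 48 of 70 distal counts moved by less than the spread between libraries or 1.5 times. For promoter signals with 1 library left out this was so by construction, because the spread was set by the same 2 libraries. Settings in which a gene was no longer open were not counted among the 110. Kcns3 was open in 6 of 9 settings and Kcnu1 in 7 of 9, the fewest of the genes named for promoter signal. With 2 libraries of unknown depth, a promoter called not open may lie below what these libraries could show.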
